A study of Mus musculus with 4 samples.

Results

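The SRY-related HMG-box (Sox) transcription factors were followed across the cells of the growing end of the mouse lower incisor. Members were chosen by gene symbol alone: Sox2, Sox4, Sox5, Sox6, Sox9, Sox10, Sox11, Sox17 and Sox18, which are 9 of the 20 Sox and Sry genes among the 32285 gene identifiers of the count matrices. The tissue was the proximal part of the lower incisor, taken at postnatal day 15 from wild-type (WT) mice and from Din-KO mice, dissociated, depleted of dead cells and profiled by droplet 3' single-cell RNA sequencing. Din-KO is a germline allele (tm1b, derived from the KOMP gene-trap clone 4930453N24Rik tm1a) that lacks exon 2 of Din and carries a LacZ reporter under the Din promoter in every cell that has the allele. There were 2 WT and 2 Din-KO libraries, and no other allele or agent was given for either group. The number of mice behind each library was not given in the sources used here, so the p-values measure only the spread between these 4 libraries.

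All Sox proteins bind DNA through the same HMG domain and are grouped by the similarity of that domain. SoxE factors (Sox9, Sox10) act in chondrocytes and in neural crest derivatives, SoxD factors (Sox5, Sox6) lack a transactivation domain and act with SoxE factors in cartilage, SoxC factors (Sox4, Sox11) are typical of progenitors and immature cells, SoxF factors (Sox17, Sox18) act in blood and lymphatic vessels, and Sox2 (SoxB1) is known for keeping epithelial progenitors of the incisor's labial cervical loop. The mouse incisor grows throughout life from mesenchymal progenitors of the proximal pulp, which give rise to pulp cells and dentin-forming odontoblasts, and from epithelial progenitors of the cervical loops, which give rise to enamel-forming ameloblasts.

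The 4 matrices held 20502 barcodes, of which 11310 passed the filters: 3903 and 1560 in WT replicates 1 and 2, and 4575 and 1272 in Din-KO replicates 1 and 2. The median depth was 8016 to 11587.5 unique molecular identifiers (UMIs, each standing for 1 captured transcript) a cell, and levels are given as UMIs of a gene for every 1000000 UMIs (CPM) summed over the cells of a library. Cells fell into 32 clusters, made without the Sox genes and named from fixed markers, of which 3797 cells were dental pulp-like, 890 odontoblast-like, 1425 dental follicle-like, 576 epithelium-like, 745 endothelium-like and 94 glia-like. Clusters 2 and 3 were called pulp-like from their scores over all 12 pulp markers, none of which was among their 10 leading genes. Kept cells of different libraries shared 0 to 4 barcodes. Din itself read 33.1 and 24.6 CPM in WT and 17.3 and 21 CPM in Din-KO, and 3' reads outside the deleted exon do not check the deletion. Y-linked transcripts were found in 41.9% and 40.3% of the cells of the Din-KO libraries but in 0.103% and 0.0641% of WT cells, so the mix of sexes differs with genotype, and genes of dissociation stress were fitted higher in Din-KO mesenchyme-like cells for 10 of 10 genes tested (none past the threshold). Their part in the genotype results was not tested, except that the genotype results by class and for the gradient, though not those by single cluster, were also computed on cells with Xist and no Y-linked UMI.

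The Sox genes divided the tissue between them. By class, Sox10, Sox2, Sox5 and Sox6 were highest in glia-like cells, Sox17, Sox18 and Sox11 in endothelium-like cells, Sox9 in dental pulp-like cells and Sox4 in perivascular-like cells. How sharply a gene marked its class differed. Glia-like cells held 92.4% of all Sox10 UMIs, and endothelium-like cells held 96.6% of Sox17 UMIs and 87.3% of Sox18 UMIs. Sox4 had no such place: its mean of 298 CPM in perivascular-like cells was followed by 272 in B-like, 243 in dental follicle-like and 240.0 in endothelium-like cells, and the libraries of these neighbours overlapped. Sox5 in glia-like cells (69.0 CPM) likewise overlapped with odontoblast-like cells (45.7 CPM), and Sox6 in glia-like cells (73.2 CPM) with the small erythroid-like class (19.01 CPM).

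**Figure D1:**
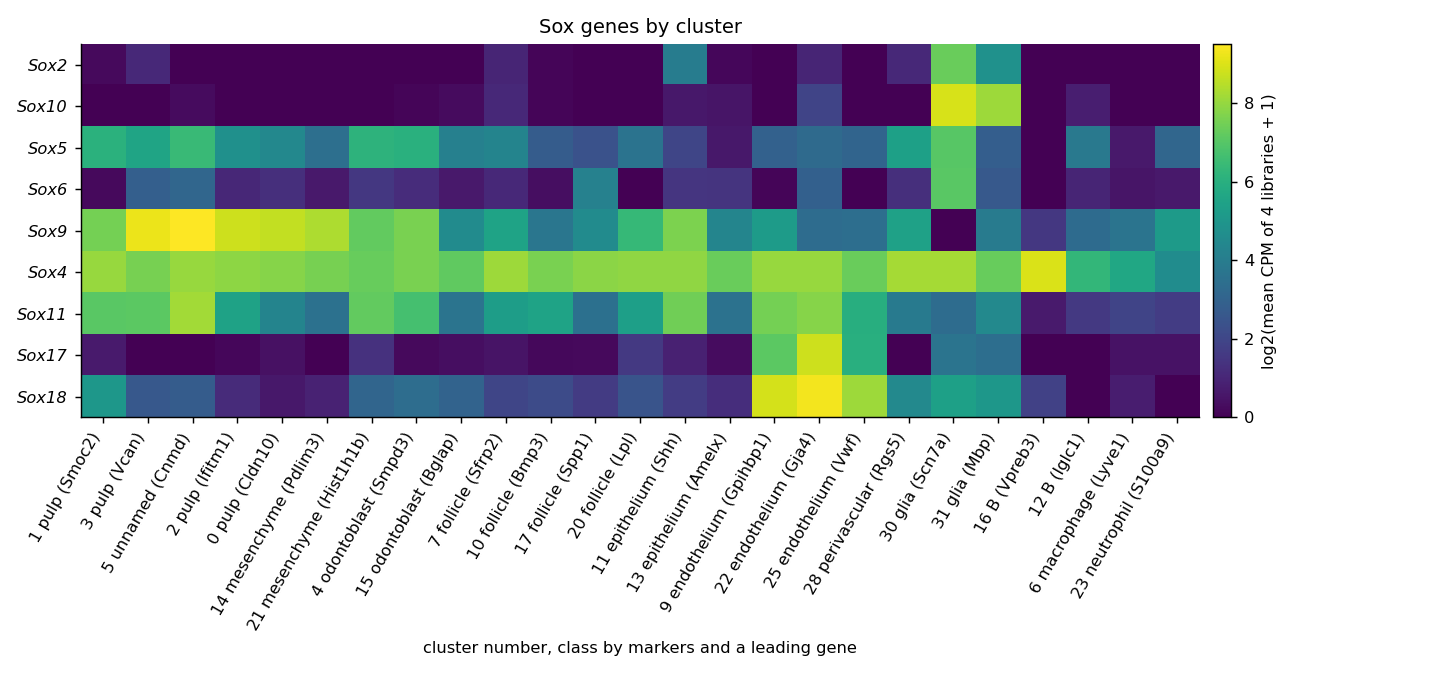
Mean level of each Sox gene (rows) in 25 clusters (columns, with the cluster number, its class and a leading gene), as log2 of the mean CPM of the 4 libraries plus 1, given by the colour scale. Sox10 is bright in the glial clusters alone, Sox17 and Sox18 in the endothelial clusters 9, 22 and 25, Sox9 along the pulp clusters, and Sox4 nearly everywhere.

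Sox9 (chromosome 11, 112782224-112787760, plus strand, GRCm38, 3 exons), the SoxE factor of chondroprogenitors, was found in 47.5% of all cells, and dental pulp-like cells held 53.6% of its UMIs. Within the pulp its level was not uniform. The Smoc2 cluster (cluster 1), which had the highest Gli1 of the pulp clusters (109 ± 15.7 CPM, SD, n = 4 libraries; Gli1 marks incisor mesenchymal stem cells), read 194 and 152 CPM of Sox9 in WT and 219 and 174 CPM in Din-KO. The Vcan cluster (cluster 3) read 387 and 658 CPM in WT and 574 and 791 CPM in Din-KO, so that every library of the Vcan cluster was above every library of the Smoc2 cluster. Means of the pulp clusters were 184 ± 28.5 CPM in cluster 1, 602 ± 169 in cluster 3, 436 ± 109 in cluster 2 (Ifitm1, Fmod) and 402 ± 113 in the Cldn10 cluster (cluster 0). Clusters 3, 2 and 0 overlapped with each other. Odontoblast-like cells were lower: the Smpd3 cluster (cluster 4), which held almost no Dspp (dentin sialophosphoprotein), read 195 ± 43.5 CPM, close to cluster 1 and with overlapping libraries. The Dspp-rich cluster (cluster 15) read 36.5 and 16.4 CPM in WT and 26.4 and 12.2 CPM in Din-KO, below every library of the other 5 clusters.

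**Figure D2:**
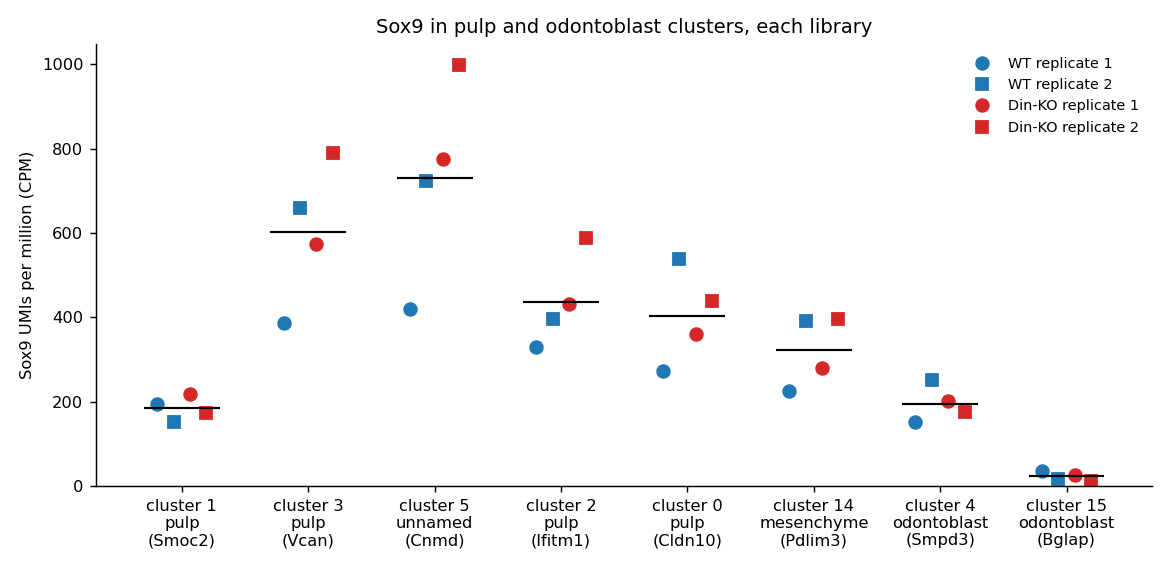
Sox9 level (CPM, linear axis from 0) in each library (points; blue WT, red Din-KO, circles replicate 1 and squares replicate 2) and the mean (bar) for 8 mesenchymal clusters, ordered from the Smoc2 cluster to the Dspp-rich cluster. The 4 libraries of cluster 15 lie between 12.2 and 36.5 CPM, and those of cluster 3 between 387 and 791 CPM.

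Shares of cells gave the same order. A Sox9 UMI was found in 92.5% ± 5.4 of cluster 3 cells (mean of libraries, SD, n = 4; median depth 8856.5 UMIs), in 49.2% ± 4.2 of cluster 1 cells (4737 UMIs) and in 19.96% ± 9.5 of cluster 15 cells (20331 UMIs). After thinning of each cell to 2000 UMIs, shares were 64.4% in cluster 3, 54.7% in cluster 2, 53.7% in cluster 0, 29.6% in cluster 4, 24.1% in cluster 1 and 2.47% in cluster 15. B-like cells, which should lack Sox9, gave 2.72% as counted (3271.5 UMIs) and 0.824% thinned.

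The Sox9 level was highest, at 730 ± 239 CPM, in a cluster that could not be named (cluster 5, 650 cells). It read 420 and 724 CPM in WT and 777 and 999 CPM in Din-KO, higher than cluster 3 in 4 of 4 libraries although the ranges overlapped. Its leading genes were Cnmd (chondromodulin), Gpha2, Col9a1, Col9a3 and Apod, and since 2 chondrocyte markers and no pulp marker beyond Gpha2 led it, it was kept out of the pulp-like class. Its score over the 12 pulp markers, 0.819, was nevertheless above those of clusters 0 (0.698), 2 (0.816) and 3 (0.403), which were called pulp-like. Of the 13 genes listed as targets of SOX9 in cartilage, the type IX collagens were high there: Col9a2 at 733 ± 165 CPM, Col9a3 at 444 ± 31.6 CPM and Col9a1 at 97.9 ± 35.7 CPM. The genes that define hyaline cartilage were lower. Col2a1 (type II collagen) was at 21.3 ± 22.3 CPM and Acan (aggrecan) at 15.8 ± 9.8 CPM. Both means were above the 0.57 CPM that 3 counts would give in this cluster. Matn1 was at 0.10 ± 0.20 CPM, and Comp had no UMI.

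The cartilage collagens did not all follow Sox9 in the same way. Col9a2 was 453 ± 92.5 CPM in cluster 3 and 12.9 ± 5.8 CPM in cluster 15, high and low where Sox9 was. Col11a1 and Col11a2 (type XI collagen) went the other way, at 171 ± 34.4 and 46.1 ± 20.5 CPM in cluster 3 but 2118 ± 772 and 1736 ± 1369 CPM in cluster 15. Pulp-like cells with a Col9a2 UMI had a Sox9 UMI more often than those without, in 55.6% ± 11.7 against 44.2% ± 4.8 of cells thinned to 2000 UMIs, and in the same direction in 4 of 4 libraries.

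The Sox9 gradient was then described along an ordering of cells. Pulp-like and odontoblast-like cells (4687 cells) were ordered by diffusion pseudotime, a distance along the cells' nearest-neighbour graph, from the Gli1-rich cluster 1 towards the Dspp-rich cluster 15, without the Sox genes, and cut into 5 bins of equal cell number. From the first to the last bin, Sox9 read 216, 291, 326, 285 and 198 CPM in WT replicate 1, and 238, 406, 359, 522 and 69.2 CPM in WT replicate 2. In Din-KO it read 241, 410, 417, 356 and 196 CPM in replicate 1, and 209, 291, 391, 271 and 58.2 CPM in replicate 2. Every library thus rose from the first bin to a middle bin and was lowest in the last as counted. Thinned to 2000 UMIs, the first bin was below the last in WT replicate 1 (-0.32 on the log2 scale) and in Din-KO replicate 1 (-0.25), as it was in cells with Xist and no Y-linked UMI in Din-KO replicate 1 (-0.36). As counted, the log2 ratio of bin 1 over bin 5 was 0.12 and 1.77 in WT and 0.29 and 1.83 in Din-KO, with a mean of 1.00 ± 0.92 (SD, n = 4), or 0.84 ± 0.74 with cluster 5 included. Over all libraries, 63.2% of the cells of the last bin were Cldn10 cells and 24.3% were Dspp-rich cells, so it mixed cells with high and with low Sox9. Odontoblast-like Smpd3 cells (cluster 4) made up 44.6% of the second bin, and Cldn10 pulp-like cells 69.7% of the fourth. The bins are thus not successive steps from pulp to odontoblast. Dspp-rich cells were 17.1% and 49.4% of the odontoblast-like cells in WT replicates 1 and 2, and 12.7% and 41.6% in Din-KO replicates 1 and 2.

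Without the odontoblast-like cells the direction turned. In the 3797 pulp-like cells alone, ordered in the same way, Sox9 read 170, 382, 337, 269 and 296 CPM in WT replicate 1, and 84.3, 723, 421, 555 and 507 CPM in WT replicate 2. In Din-KO it read 200.2, 554, 452, 383 and 353 CPM in replicate 1, and 156, 622, 637, 622 and 353 CPM in replicate 2. The first bin, made up of the Smoc2 cluster, was the lowest in 4 of 4 libraries, and the log2 ratio of bin 1 over bin 5 was -1.34 ± 0.84. From first to last, the bins held only 25, 51, 30, 44 and 37 cells in WT replicate 2. In Din-KO replicate 2 they held 45, 36, 19, 16 and 15 cells, the later ones below the 20 required for the genotype tests. The second bin, of which the Vcan cluster made up 84.8%, was above the first by 1.92 ± 0.85 on the log2 scale and above the last by 0.59 ± 0.19, in every library. Along this ordering, Sox9 was thus low in the Smoc2 cells and highest in bin 2 or bin 3 in 4 of 4 libraries. It was lower again in the last bin, a course that a ratio of first to last bin does not describe. Among pulp-like and odontoblast-like cells it was lowest in the Dspp-rich cluster, which this ordering left out.

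**Figure D3:**
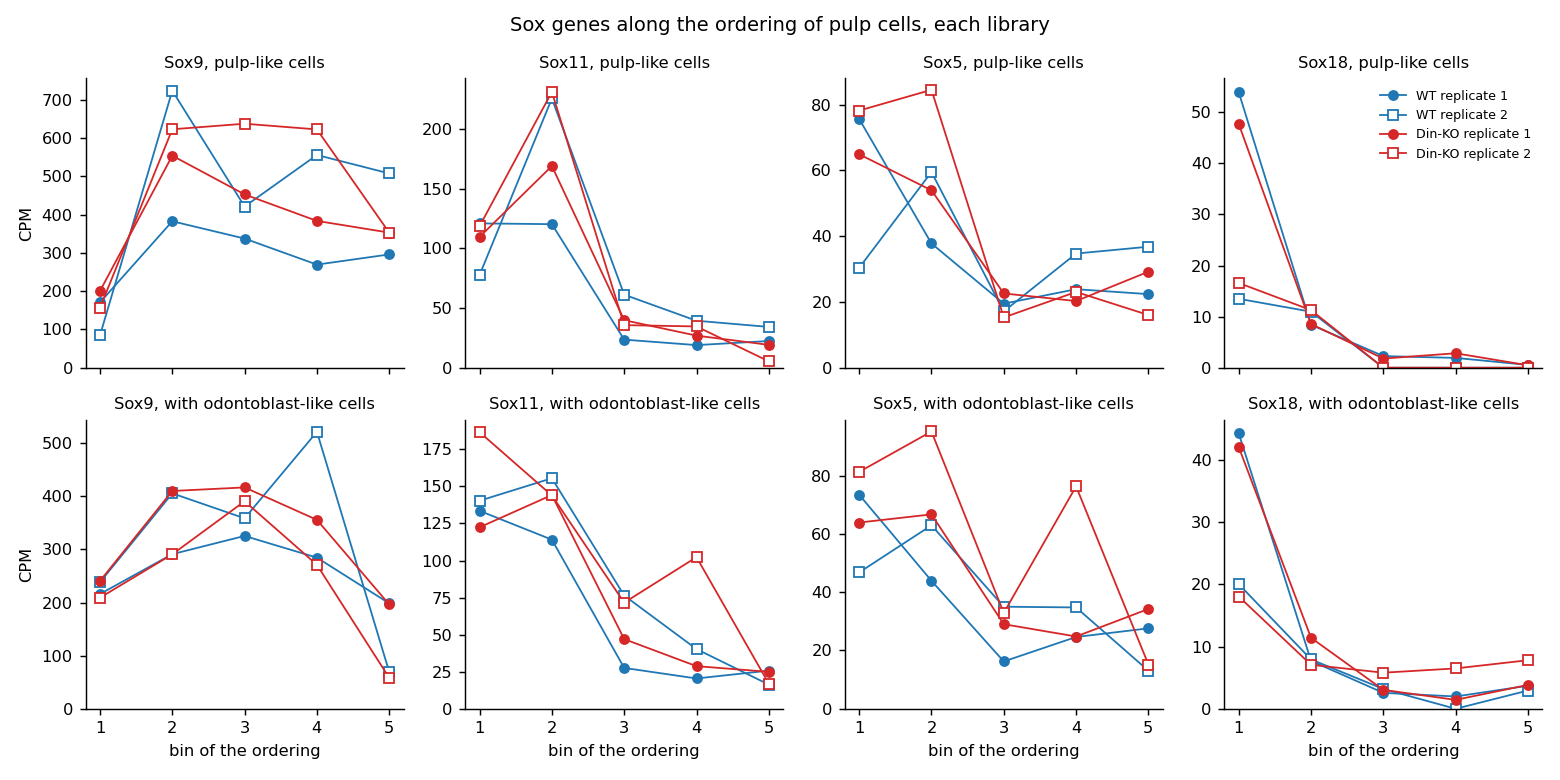
CPM (linear axes from 0) of Sox9, Sox11, Sox5 and Sox18 in 5 bins of equal cell number along the ordering, in pulp-like cells alone (upper row) and with odontoblast-like cells (lower row). Each line is a library (blue WT, red Din-KO, filled replicate 1, open replicate 2). Sox9 climbs from bin 1 to bin 2 in the upper row, while Sox11 falls after bin 2 and Sox18 falls after bin 1.

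Some other Sox genes had lower means late in the same ordering than early. Sox11 (chromosome 12, 27334264-27342574, minus strand, a single-exon gene), a SoxC factor, averaged 107 ± 19.96, 186 ± 52.3, 40.0 ± 15.7, 29.9 ± 8.9 and 20.3 ± 11.9 CPM in bins 1 to 5 of pulp-like cells. Its second bin exceeded its last by 3.33 ± 1.27 on the log2 scale, in all 4 libraries, although the last bin of Din-KO replicate 2 held 15 cells and 1 Sox11 UMI. Sox5 (chromosome 6, 143828425-144781977, minus strand, up to 15 exons in a transcript), a SoxD factor, averaged 62.3 ± 22.04 and 58.9 ± 19.4 CPM in the first 2 bins and 18.6 ± 3.2, 25.5 ± 6.3 and 26.1 ± 8.9 CPM in the last 3. In WT replicate 2, however, Sox5 read 30.4 CPM in the first bin and 36.8 CPM in the last. Sox18, described with the endothelium, fell from 32.9 ± 20.8 CPM in the first bin to 0.256 ± 0.297 CPM in the last, where WT replicate 2 and Din-KO replicate 2 had 0 UMIs. Sox4 showed no such fall, at 278 ± 66.6 CPM in the first bin and 233 ± 66.6 CPM in the last. Sox11 and Sox5 were thus shared by the Smoc2 and Vcan cells, and Sox18 was mostly in the Smoc2 cells. In cluster 5, Sox11 was 146 and 315 CPM in WT and 259 and 451 CPM in Din-KO, its highest mean of all clusters (293 ± 127 CPM), and Sox5 was 85.5 ± 21.7 CPM.

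The gradients were compared between genotypes in the ordering that included odontoblast-like cells. The measure was the difference, Din-KO minus WT, of the log2 ratio of first to last bin, with the library as a block. It thus does not compare the course described above for pulp-like cells alone. For Sox9 this difference was 0.15 ± 0.55 (standard error; adjusted p = 1.00, edgeR quasi-likelihood test with Benjamini-Hochberg adjustment over 12270 genes). The other members tested gave 0.16 ± 0.38 for Sox11, -0.01 ± 0.44 for Sox5, 0.19 ± 0.33 for Sox4 and -0.77 ± 0.91 for Sox18. None of the 5 members passed, against 0% of all genes (159 genes at an unadjusted p under 0.05). The sign for Sox9 rested on single libraries: it was -0.49 without WT replicate 1, -0.41 without Din-KO replicate 2 and -0.36 in cells with Xist and no Y-linked UMI.

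Glia-like cells had the highest mean level of Sox10, Sox2 and Sox6, but of these held most UMIs only of Sox10. They held 44.0% of Sox2 UMIs, against 47.6% in the larger epithelium-like class. Of Sox6 UMIs they held 19.6%, against 21.8% in dental follicle-like and 21.5% in dental pulp-like cells. Sox10 (chromosome 15, 79154908-79165240, minus strand, up to 5 exons), the SoxE factor that Schwann cells need throughout life, was found in 89.5% ± 4.3 of the glia-like cells of a library (8149.5 UMIs) and in 0.359% of B-like cells. The 94 glia-like cells fell into a Scn7a cluster (cluster 30, 58 cells) with the markers of non-myelinating Schwann cells and an Mbp cluster (cluster 31, 36 cells) with those of myelinating ones. Cdh19, a cadherin of the Schwann cell lineage, was 514 ± 51.3 CPM in the former and 35.6 ± 17.7 CPM in the latter.

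All 4 of these genes were lower in cluster 31 than in cluster 30, Sox10 the least. Sox10 read 590 and 397 CPM in WT and 520 and 439 CPM in Din-KO in cluster 30, and 250.2 and 263 CPM in WT and 236 and 348 CPM in Din-KO in cluster 31, with every library of cluster 30 above every library of cluster 31. Sox2 (chromosome 3, 34650405-34652461, plus strand, single exon), an inhibitor of myelination in immature Schwann cells, read 181, 157, 135 and 174 CPM in cluster 30 (WT 1, WT 2, Din-KO 1 and Din-KO 2) and 0, 32.8, 39.4 and 35.2 CPM in cluster 31. Sox6 (chromosome 7, 115470872-116038796, minus strand, up to 17 exons) read 181, 92.3, 173 and 84.4 CPM in cluster 30 and 0, 6.57, 0 and 14.5 CPM in cluster 31. Sox5 was 132 ± 49.2 CPM in cluster 30 against at most 24.8 CPM in any library of cluster 31. These 3 genes separated the clusters in all libraries, but cluster 31 held only 4, 3, 6 and 23 cells a library. Sox9, which belongs to the same subgroup as Sox10, had no UMI in the 58 cells of cluster 30, which allows up to 6.58 CPM by a floor of 3 counts.

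Of the 13 genes listed as glial targets of SOX10, those of myelin followed cluster 31 and not the Sox10 level: Mbp was 241 ± 77.3 CPM in cluster 30 and 9369 ± 4922 CPM in cluster 31, Pmp22 was 559 ± 214 and 14768 ± 7610 CPM, and Egr2, the factor that acts with SOX10 on myelin genes, was 5.62 ± 11.2 and 113 ± 48.6 CPM. Erbb3, the neuregulin receptor, was 405 ± 106 CPM in cluster 30 and 179 ± 78.6 CPM in cluster 31, and S100b was alike in both at 600.4 ± 21.3 and 715 ± 201 CPM. Sox8, the remaining SoxE gene, was 27.2 ± 9.9 CPM in cluster 31. Glia-like cells numbered 14 and 15 in the WT libraries and 20 and 45 in the Din-KO libraries, too few for the genotype test, which required 20 in each.

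**Figure D4:**
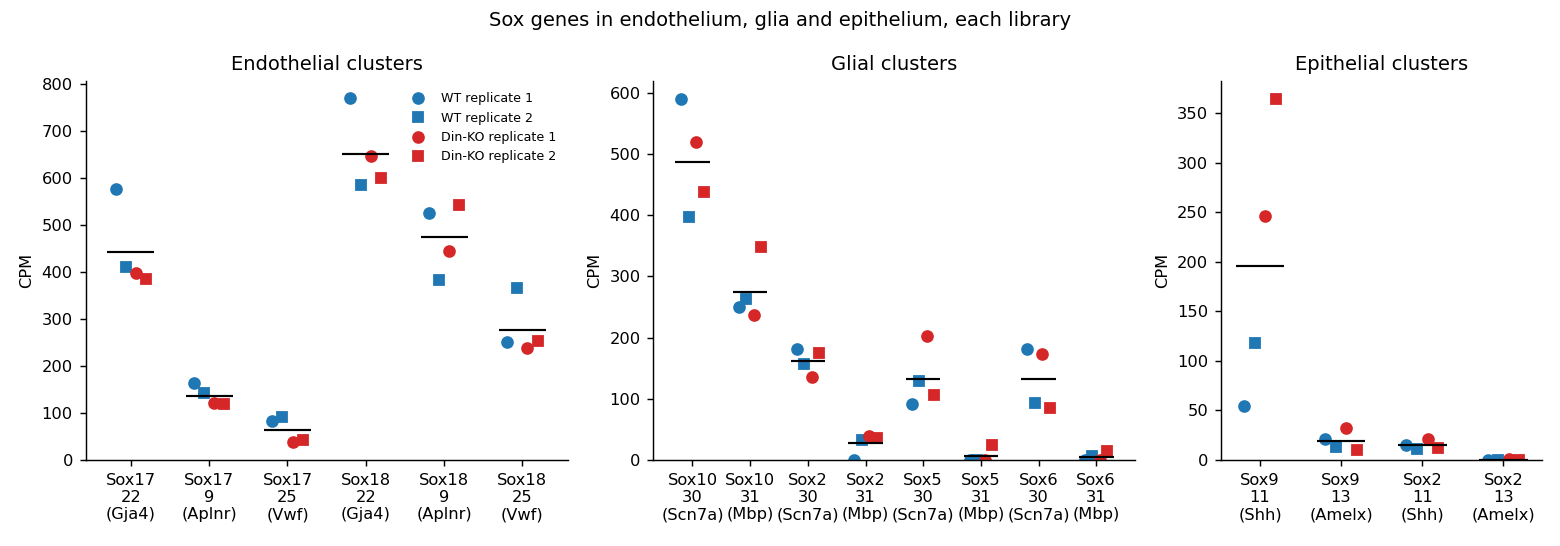
CPM (linear axes from 0) of Sox17 and Sox18 in the 3 endothelial clusters (left), of Sox10, Sox2, Sox5 and Sox6 in the 2 glial clusters (middle) and of Sox9 and Sox2 in the 2 epithelial clusters (right), with 1 point a library (blue WT, red Din-KO, circles replicate 1, squares replicate 2) and the mean as a bar. Sox17 and Sox18 step down from cluster 22 to 9 to 25, and Sox9 in epithelial cluster 11 ranges from 54.4 to 364 CPM.

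The SoxF pair marked the endothelium and was graded within it. Sox17 (chromosome 1, 4490931-4497354, minus strand, up to 5 exons), a factor of arterial identity, read 577 and 410 CPM in WT and 398 and 386 CPM in Din-KO in the Gja4 cluster (cluster 22). It read 163 and 143 CPM in WT and 121 and 119 CPM in Din-KO in the Aplnr cluster (cluster 9), and 82.3 and 90.9 CPM in WT and 37.3 and 41.4 CPM in Din-KO in the Vwf cluster (cluster 25). Every library of each cluster was above every library of the next. Sox18 (chromosome 2, 181669836-181671640, minus strand, 2 exons), a factor of vascular and lymphatic development, was 651 ± 84.0, 474 ± 74.2 and 278 ± 59.7 CPM in the same order, again without overlap.

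The listed arterial and venous genes placed the clusters. Gja4 and Gja5, connexins of arterial endothelium, were 633 ± 225 and 134 ± 31.1 CPM in cluster 22, against 34.1 ± 27 and 0 CPM in cluster 25. Nr2f2, the factor of venous identity, was 69.8 ± 33.3 CPM in cluster 22, 154 ± 34.9 CPM in cluster 9 and 583 ± 43.8 CPM in cluster 25. Sox17 kept this relation from cell to cell at equal depth. In endothelium-like cells thinned to 2000 UMIs it was found in 57.1% ± 9.6 of cells with a Gja4 UMI and 20.1% ± 5.5 of cells without, and in 16.4% ± 4.7 of cells with an Nr2f2 UMI and 30.98% ± 5.2 of cells without, each in the same direction in 4 of 4 libraries. As counted, the Nr2f2 relation was lost (65.7% ± 6.6 and 63.1% ± 11.5). Sox18 behaved alike but less steeply with Gja4, at 65.6% ± 11.6 and 51.0% ± 5.6 thinned. Sox7, the remaining SoxF gene, was graded less than Sox17, at 130 ± 40.3, 61.6 ± 9.4 and 57.4 ± 8.2 CPM in clusters 22, 9 and 25.

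Sox18 was also found outside the endothelium, and not in the Smoc2 pulp cluster alone. By library it read 4.83 to 132 CPM in erythroid-like, 0 to 80.6 CPM in glia-like and 11.1 to 40.8 CPM in perivascular-like cells. Its mean was 8.82 CPM in odontoblast-like and 8.18 CPM in dental pulp-like cells. In the Smoc2 pulp cluster it read 48.9 and 14.3 CPM in WT and 44.6 and 19.1 CPM in Din-KO, and 143 of the 864 cells had a UMI. The share was 21.6%, 16.7%, 15.0% and 14.5% in the 4 libraries (WT 1, WT 2, Din-KO 1, Din-KO 2), against 1.08%, 1.48%, 0% and 0% of B-like cells, where a count of 0 leaves an upper 95% limit of 3.66% and 3.42% (exact binomial, covering counting error only). Thinned shares were 7.88%, 3.33%, 6.32% and 3.77% in the Smoc2 cluster and at most 0.559% in B-like cells. Of the 864 cells, 10 had a Cdh5 UMI and 32 a Pecam1 UMI, markers of the endothelium, and 4 and 7 of these also had Sox18. The 9 endothelium markers together summed to 50.3, 48.7, 127 and 55.3 CPM there, with none of them at 0. Sox17 was 0.594 ± 0.794 CPM in the same cells.

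In the epithelium, Sox9 and Sox2 were higher in cluster 11 than in the Amelx cluster (cluster 13) in every library. Cluster 11 was led by genes that included Shh, Epcam and Krt17, and cluster 13 by the enamel genes Amelx, Enam and Ambn. Sox2 read 15.4 and 11.1 CPM in WT and 21.2 and 11.6 CPM in Din-KO in cluster 11, and 0, 0, 0.517 and 0 CPM in cluster 13, where 1 of 250 cells had a UMI. The share of cluster 11 cells with a Sox2 UMI was 20%, 6.45%, 15.8% and 23.6% (WT 1, WT 2, Din-KO 1, Din-KO 2), and 6.78%, 0%, 6.67% and 1.82% after thinning, against 0% of the B-like cells of every library (upper 95% limits of 1.80% to 3.66%). Of the 12 genes listed with SOX2 in epithelial stem cells of the incisor, Tbx1 (129 ± 22.2 CPM), Isl1 (179 ± 51.6 CPM) and Bcl11b (101 ± 29.5 CPM) were above their levels in cluster 13 in all libraries. Lgr5 had no UMI in either cluster and Lrig1 was 2.54 ± 1.88 CPM in cluster 11, so the cluster is not shown to be the stem cells themselves.

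Sox9 in cluster 11 varied most between libraries, at 54.4 and 118 CPM in WT and 246 and 364 CPM in Din-KO. The share of cells with a Sox9 UMI was 40.8% and 22.6% in WT and 60% and 69.1% in Din-KO, and 11.9%, 12.9%, 25.8% and 30.9% after thinning, so that the WT libraries lay below the Din-KO libraries either way, and the level did not overlap either, as in 31% of the genes tested in cluster 11. In B-like cells the shares were 4.84% and 0.985% in WT and 5.05% and 0% in Din-KO. Mesenchyme markers were present at low levels in the same cells: the 12 pulp markers summed to 317, 245, 587 and 86.3 CPM in the 4 libraries, with only Lhx8 at 0. The 8 general mesenchyme markers summed to 516, 2347, 599 and 1077 CPM, with none at 0, and the 8 chondrocyte markers to 1.93, 2.23, 6.19 and 9.96 CPM, with Cnmd, Matn1 and Snorc at 0. Their part in the Sox9 level was not tested. Cluster 13 had Sox9 at 20.7 and 13.5 CPM in WT and 32.6 and 9.77 CPM in Din-KO. Sox11 was likewise high in cluster 11 (176 ± 65.3 CPM) and low in cluster 13 (11.1 ± 6.9 CPM), and Sox21, which is no member, was the Sox gene of cluster 13, at 211 ± 57.8 CPM.

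The SoxC genes were broad, but each had a steep step in a lineage. Sox4 (chromosome 13, 28948919-28953713, minus strand, single exon), needed for early B cell development, was found in 61.2% of all cells. Its highest cluster was the Vpreb3 cluster of B-like cells (cluster 16), at 333 and 698 CPM in WT and 492 and 484 CPM in Din-KO, the highest of all clusters in every library, although glial cluster 30 was level with it in WT replicate 1 (333 CPM). In the Ms4a1 cluster of B-like cells (cluster 12) it was 103 and 120 CPM in WT and 52.4 and 37.4 CPM in Din-KO. At equal depth, 10.3% ± 2.2 of B-like cells with Ms4a1 (CD20) had a Sox4 UMI, against 49.1% ± 8.5 of those without, in the same direction in 4 of 4 libraries. The lowest levels were in monocyte-like (cluster 19, 10.3 ± 5.3 CPM) and neutrophil-like cells (cluster 23, 23.5 ± 10.3 CPM). Along the tooth lineages Sox4 stayed within 146 ± 21.4 CPM in the Dspp-rich cluster and 260.0 ± 61.0 CPM in the Smoc2 cluster.

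Sox11 was more selective. Besides cluster 5 and the early pulp it marked the endothelium, at 219 ± 9.6 CPM in cluster 22, 182 ± 46.9 CPM in cluster 9 and 61.2 ± 19.5 CPM in cluster 25. The means followed the order of Sox17, but the libraries of clusters 22 and 9 overlapped, with cluster 9 the higher in Din-KO replicate 2. Sox11 was 11.6 ± 2.6 CPM in the Dspp-rich cluster and 1.87 ± 1.31 CPM in B-like cells. Of the 6 genes listed as SOXC targets, Tead2 was 56.5 ± 20.4 CPM in cluster 5 and 34.7 ± 7.5 CPM in cluster 1, and Stmn1 470.1 ± 142 and 72.3 ± 31.1 CPM, whereas the neuronal genes Tubb3 and Dcx were at or near 0 in both. Exons of Sox4, Sox5 and Sox17 overlap an antisense gene (Gm26735, Sox5os1 and Gm37587) in the annotation, and no member shares an exon with a gene on its own strand.

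Genes with a pattern like each Sox gene were taken as the 3 highest Pearson correlations of log2(CPM + 10) over the 31 clusters with at least 50 cells, among 8091 genes. These are descriptions over clusters that share libraries. Glial cluster 31, with 36 cells, was left out, so cluster 30 was the only glial cluster compared. The values for genes high mainly there, above all Sox10, thus depend largely on that 1 cluster. Sox9 was nearest to Tpd52l1 (0.93), Dlx4 (0.93) and Minar2 (0.90), Sox10 to Foxd3, Tfap2b and Gm12688 (1.00 each after rounding), and Sox2 to Kcnh8 (0.98), Cadm2 (0.97) and Cadm4 (0.97). Sox17 was nearest to Podxl (0.99), Cldn5 (0.99) and Bcl6b (0.99) and Sox18 to Tie1 (0.96), Shank3 (0.96) and Ecscr (0.96). The highest correlations were lower in value for Sox6 (Megf10, 0.91, Shc4, 0.88 and Igsf11, 0.87), Sox4 (2700081O15Rik, 0.90, 2610008E11Rik, 0.88 and Tia1, 0.87), Sox5 (Tfap2a, 0.86, Fign, 0.85 and Tbx3, 0.83) and Sox11 (Prrg3, 0.84, Piezo2, 0.82 and Cttnbp2, 0.82).

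Whether the loss of Din changed Sox levels within a cell type was tested on UMIs summed per library, in 5 classes that had at least 20 cells in each library. Other classes with enough cells, among them odontoblast-like and B-like cells, were not tested as classes. No member passed an adjusted p of 0.05 in any of the 5 classes. The same test called 0% of the 15178 genes tested in mesenchyme-like cells, 0.0227% in dental pulp-like cells, 0% in dental follicle-like cells, 0% in epithelium-like cells and 0.126% in endothelium-like cells, and at an unadjusted p under 0.05 it gave 157, 251, 285, 144 and 328 genes. Of the members, 6 had enough UMIs to be tested in each class except the epithelium-like, where 4 did. In the 21 clusters tested one by one, an analysis added after the data were seen, 0 of 69 tests of members passed, against 0.0553% of the tests of all genes in these clusters. The 2 WT and 2 Din-KO libraries did not overlap for 18.1% of all genes in mesenchyme-like cells, 23.9% in dental pulp-like, 23.4% in dental follicle-like, 21.9% in epithelium-like and 26.4% in endothelium-like cells, and for 2, 2, 2, 2 and 3 members in the same classes.

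**Figure D5:**
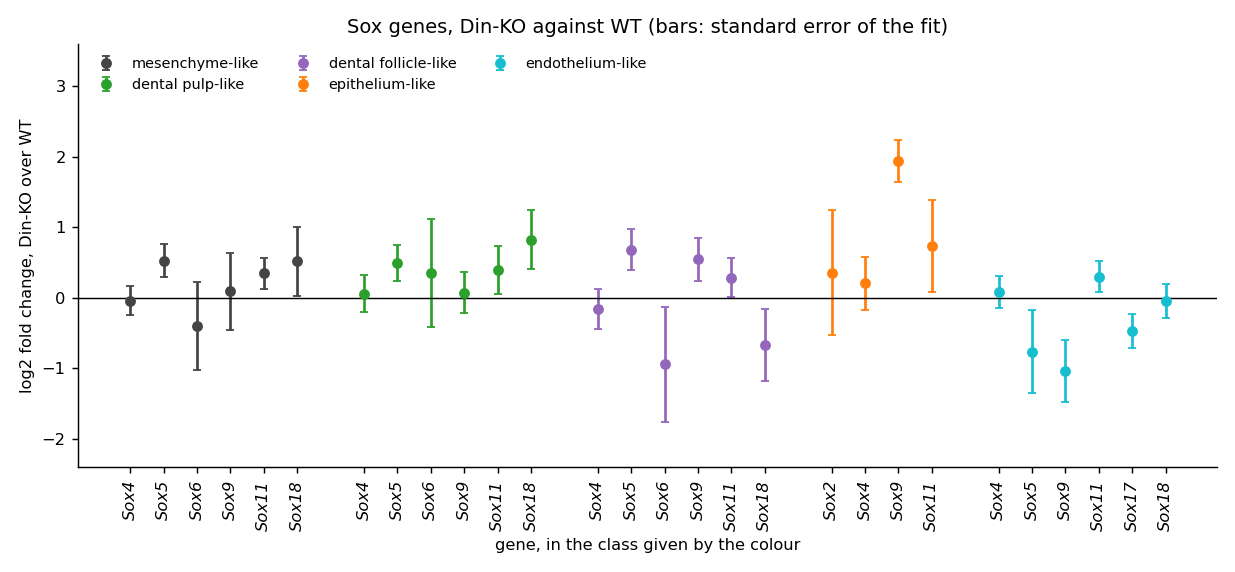
Fitted log2 fold change, Din-KO over WT, of each member tested in 5 classes (colours), with the standard error of the fit as bars and a line at no change. Sox9 in epithelium-like cells lies highest at 1.94, Sox9 in endothelium-like cells lowest at -1.03, and most others within 1 of the line.

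The difference that stood furthest from its error was Sox9 in epithelium-like cells. Its normalised level (CPM with TMM scaling) was 40.0 and 34.6 in WT and 135 and 152 in Din-KO, a log2 fold change of 1.94 ± 0.30 (standard error, n = 2 libraries a group; adjusted p = 1.00, edgeR). It was higher in Din-KO within both replicate numbers, ranged from 1.53 to 2.22 over 14 alternatives, and its adjusted p from 0.0283 to 1.00, the lowest with DESeq2. In this class DESeq2 called 0.061% of all genes tested. Cluster 11 made up 83.3% and 25.8% of epithelium-like cells in WT and 67.8% and 40.7% in Din-KO, and within cluster 11 the fold change was 1.84 ± 0.42 (adjusted p = 1.00, edgeR; 0% of genes were called there). In cells with Xist and no Y-linked UMI it was 2.21 ± 0.31. Sox11 in the same class, at 102 and 26.5 in WT and 104 and 111 in Din-KO, differed by 0.74 ± 0.65.

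Sox9 in dental pulp-like cells, the named class with its highest level, was 325 and 477 in WT and 420.0 and 423 in Din-KO on the same scale, a log2 difference of 0.07 ± 0.29 (adjusted p = 1.00, edgeR). The Smoc2 cluster, where Sox9 was low, made up 12.05% and 16.04% of pulp-like cells in WT and 32.2% and 42.0% in Din-KO. The part of this mix was not tested. In dental follicle-like cells Sox9 was 30.3 and 23.97 in WT and 49.3 and 30.03 in Din-KO (0.55 ± 0.30), where the groups overlapped. By cluster, Sox9 was higher in Din-KO without overlap in follicle cluster 7 and lower in follicle cluster 17, where 26.7% and 28.4% of genes did not overlap either. In endothelium-like cells it was 22.6 and 43.8 in WT and 20.02 and 10.5 in Din-KO (-1.03 ± 0.44, adjusted p = 1.00). Over 13 alternatives that difference ran from -1.63 to 0.02. Without WT replicate 1 it was -1.45 ± 0.38, a fit in which WT is the single library with the highest Sox9. Mesenchyme markers were also highest in that library: in endothelium-like cells the 12 pulp markers summed to 188 and 365 CPM in WT and 195 and 160.3 CPM in Din-KO, and the 8 general mesenchyme markers to 553 and 3634 CPM in WT and 618 and 386 CPM in Din-KO, with none at 0. Their part in the result was not tested. In the unnamed cluster 5, WT read 441 and 707 and Din-KO 809 and 987, a difference of 0.65 ± 0.34 (adjusted p = 1.00, edgeR). The groups did not overlap there, as for 25.8% of the genes tested in cluster 5, of which 0% were called.

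Sox5 was fitted higher in Din-KO in the 3 mesenchymal classes tested. In mesenchyme-like cells it was 26.9 and 21.9 in WT and 39.4 and 31.01 in Din-KO (0.53 ± 0.23), in dental pulp-like cells 30.6 and 36.3 against 41.6 and 52.7 (0.49 ± 0.26), and in dental follicle-like cells 9.85 and 7.68 against 15.2 and 12.8 (0.68 ± 0.29). In these 3 classes, of which the first contains the others, the groups did not overlap, as for 18.1%, 23.9% and 23.4% of all genes. The adjusted p was 1.00 (edgeR), and the sign was the same in all alternatives (15, 15 and 13). The Smoc2 cluster made up 12.05% and 16.04% of pulp-like cells in WT and 32.2% and 42.0% in Din-KO. Within it Sox5 overlapped between the groups, at 78.0 and 30.9 in WT and 66.8 and 94.6 in Din-KO. In clusters 3, 4 and 7 Sox5 was higher in Din-KO without overlap, where 24.7%, 24% and 26.7% of genes did not overlap either. In clusters 0, 5, 10 and 15 the groups overlapped. In cluster 0 Sox5 was 18.8 and 28.6 in WT and 20.8 and 15.5 in Din-KO. The part of the mix of clusters in the Sox5 differences was not tested. With the replicate number as a block, Sox5 passed in mesenchyme-like cells (adjusted p = 0.0472, edgeR), where 1.75% of all genes were called. In endothelium-like cells, where it is low, Sox5 differed by -0.77 ± 0.59. Sox11 was fitted higher in Din-KO in all 5 classes, by 0.29 to 0.74 on the log2 scale, with none past the threshold. By cluster the direction was mixed. Both Din-KO libraries were below both WT libraries in clusters 0 and 15 and above both in clusters 9, 11, 22 and 25. In these clusters, in the same order, 24.8%, 19.1%, 28.1%, 31%, 29.2% and 28.1% of genes did not overlap either. The part of the mix of clusters in the Sox11 differences was not tested.

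The endothelial factor Sox17 was 258 and 197 in WT and 177 and 152 in Din-KO over all endothelium-like cells, a difference of -0.47 ± 0.24 (adjusted p = 1.00, edgeR). The Gja4 cluster made up 21.3% and 22.5% of these cells in WT and 19.6% and 21.2% in Din-KO. Within clusters 22, 9 and 25 both Din-KO libraries were below both WT libraries, most in the Vwf cluster, at 89.1 and 93.9 in WT and 40.5 and 43.4 in Din-KO (-1.12 ± 0.33, adjusted p = 1.00, edgeR). In these 3 clusters the same test called 0.334%, 0.273% and 0.0156% of all genes, and the groups did not overlap for 29.2%, 28.1% and 28.1% of them. The nearest libraries in cluster 22 were all but level, at 421.71 in WT and 421.65 in Din-KO. Sox18 over all endothelium-like cells was level, at 561 and 422 in WT and 479 and 476 in Din-KO (-0.04 ± 0.24). Sox11 there was 149 and 153 in WT and 169 and 203 in Din-KO (0.30 ± 0.22). None of the 14 genes listed as SOXF targets passed in endothelium-like cells, with a median log2 difference of 0.13 beside -0.01 over all genes.

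Sox18 in dental pulp-like cells was 7.22 and 4.81 in WT and 13.2 and 7.94 in Din-KO (0.83 ± 0.41, adjusted p = 1.00, edgeR). The Smoc2 cluster, which carries it, made up 12.05% and 16.04% of pulp-like cells in WT and 32.2% and 42.0% in Din-KO, and within that cluster, where 26% of genes did not overlap between the groups and 0% were called, those of Sox18 overlapped. In dental follicle-like cells Sox18 was 4.82 and 2.95 in WT and 2.76 and 2.09 in Din-KO (-0.67 ± 0.51), and 5.65% and 5.66% of WT cells against 3.61% and 2.62% of Din-KO cells had a UMI. In libraries of summed cells, a different mix of cells and a different level per cell cannot be told apart within a class. Sox4 differed by at most 0.21 in size in the 5 classes, with a standard error of 0.21 to 0.37, and Sox2 in epithelium-like cells by 0.36 ± 0.89.

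Of the lists tied to Sox factors, none had a gene past the threshold in the class it belongs to. The SOX9 cartilage list had a median log2 difference of -0.38 over 10 genes tested in mesenchyme-like cells, beside -0.01 over all genes, and -0.39 over 9 genes in dental pulp-like cells. The list of genes with SOX2 in epithelial stem cells had a median of 0.33 over 10 genes in epithelium-like cells, beside -0.04 over all genes. The SOXC list had a median of -0.12 over 5 genes in mesenchyme-like cells.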

How the data were processed

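Per the labels and file headers, the authors demultiplexed reads with bcl2fastq and deposited Cell Ranger matrices of UMI counts (mm10/GRCm38), 1 library each, with no normalization. The 9 members and all gene lists were chosen with earlier results of these data known. Cells were kept from 1000 detected genes upwards, provided that mitochondrial UMIs did not exceed 10% and hemoglobin UMIs 3%, then integrated and clustered with Seurat 5.3.0 (2000 variable genes, 30 components, resolution 1) without the 20 Sox genes, and clusters were named from at least 3 detected markers. Scrublet marked 0.221% of cells, too few to have worked, and so removed none. Genes named were the members, listed genes a result turned on and the 3 nearest genes in pattern. UMIs summed per library were tested with edgeR 4.0.16 (TMM, filterByExpr, quasi-likelihood, Benjamini-Hochberg adjustment), with DESeq2 1.42.0 as an alternative. Thinning to 2000 UMIs left out 24 and 11 WT and 26 and 15 Din-KO cells. The root of the ordering was changed to the medoid of cluster 1 after a first root's bins were seen. Sex-linked transcripts, single clusters, differences between classes and the inclusion of cluster 5 were examined beyond this, the last 3 chosen after seeing the data. Coordinates are those of GENCODE M21. The code was tested on simulated counts.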

Additional observations from a re-analysis of the deposited data

Results flagged for a closer look

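The Din-KO difference of Sox9 had opposite directions in 2 classes: both Din-KO libraries were above both WT libraries in epithelium-like cells and below both in endothelium-like cells. The groups did not overlap, in either direction, for 21.9% and 26.4% of all genes in these classes. The pair was picked for these opposite directions, so the unadjusted p below comes from values already selected to differ. The log2 difference between the classes, epithelium-like minus endothelium-like, was 2.94 ± 0.55 (standard error; unadjusted p = 0.00181, adjusted p = 1.00, edgeR interaction of class and genotype with library as a block, chosen after the data were seen). In endothelium-like cells mesenchyme markers were highest in the WT library with the highest Sox9 (replicate 2), where the 8 general mesenchyme markers summed to 3634 CPM against 386 to 618 CPM in the other libraries, and the 12 pulp markers to 365 CPM against 160.3 to 195 CPM, and their part in the result was not tested. Sox9 summed to 1525 UMIs in epithelium-like and 227 UMIs in endothelium-like cells.

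The Din-KO difference of Sox18 was upward in dental pulp-like and downward in dental follicle-like cells in all libraries, with a log2 difference between the classes of 1.48 ± 0.47 (unadjusted p = 0.0123, adjusted p = 1.00, same test). This pair was picked in the same way, and the groups did not overlap for 23.9% and 23.4% of all genes in these classes. At equal depth, the share of dental follicle-like cells with a Sox18 UMI was 0.597% and 0.474% in WT and 0.559% and 0.658% in Din-KO. These are shares of 335 and 422 thinned WT cells and 358 and 304 thinned Din-KO cells. So few cells kept a UMI that the thinned shares cannot show a direction either way. Neither difference passed, and 6 pairs of classes were compared.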

How the results depend on the processing

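The alternatives were other size factors, no low-count filter, DESeq2, each library left out, a replicate block, cells with Xist and no Y-linked UMI, removal of the highest doublet scores, resolution 0.5, no integration, Sox genes kept, thinning, and other orderings and bins. The count of members past the threshold was 0 in each class. With the replicate block it became 1 in mesenchyme-like cells (Sox5, adjusted p = 0.0472, edgeR, range over 15 alternatives 0.0472 to 1.00), where 1.75% of all genes were called. With DESeq2 it became 1 in epithelium-like cells (Sox9), where 0.061% of all genes were called. In endothelium-like cells it changed for Sox9 without WT replicate 1, where WT is a single library, the one with the highest Sox9. More of all genes were called in that fit as well, so it is read as a log2 difference only. The causes were not tested. The Sox9 gradient difference between genotypes, 0.15, ran from -0.49 to 0.76 when a library was left out and was -0.36 in cells with Xist alone. The Sox9 ratio of first to last bin, 1.00, was -1.34 in dental pulp-like cells alone, which by construction have no Dspp-rich cells. It ran from 0.24 when thinned to 1.53 from the first root. The orderings did not start from the same cells. Mean Smoc2 in the first bin was 1357 CPM in the main ordering, 6.88 CPM from the first root and 13.7 CPM along the first principal component. The ratios of the other orderings thus do not repeat the comparison that starts from Smoc2 cells. Of the 9 members, 9 kept their leading class, except under thinning and without integration (8, Sox4 moving to B-like cells).

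The labels do not say that equal replicate numbers mark a shared litter or day, and there are only 2 pairs. The library names follow the replicate numbers, WT-2 and KO-2 for replicate 1 and CD1-WT and CD2-KO for replicate 2, and the labels do not say what the 2 styles stand for. Deviations from the group means correlated between equal numbers (r = 0.79, 0.51, 0.61, 0.52 and 0.49 in mesenchyme-like, dental pulp-like, dental follicle-like, epithelium-like and endothelium-like cells). With the replicate block 266, 411, 55, 0 and 258 genes were called in the same classes, against 0, 3, 0, 0 and 14 without it, so the number rose in all but epithelium-like cells. Members with few UMIs were not tested at this depth. These were Sox2, Sox10 and Sox17 outside their classes, Sox5, Sox6 and Sox18 in epithelium-like cells, and Sox6 in endothelium-like cells. No member was tested in glia-like cells, the class of Sox10, which were too few.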

Other observations

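Sox genes that are no members had places of their own. Sox21 was 211 ± 57.8 CPM (SD, n = 4 libraries) in the Amelx cluster of epithelium, at 134 and 200.1 CPM in WT and 257 and 254 CPM in Din-KO. Sox13, a SoxD gene, was highest in the Gja4 cluster of endothelium at 78.1 ± 13.9 CPM, against 32.1 ± 9.9 CPM in the Aplnr cluster and 25.9 ± 6.7 CPM in the Vwf cluster. Sox12, a SoxC gene, was spread over mesenchyme, from 34.1 ± 10.0 CPM in the Cldn10 cluster to 73.8 ± 16.3 CPM in the Smpd3 cluster. Sox14 and Sry had no UMI, Sox3 had 1 and Sox1 had 2.

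A macrophage-like cluster of 128 cells with a high median depth (cluster 24, 18688 UMIs) read 109, 63.5, 134 and 50.1 CPM of Sox9 (WT 1, WT 2, Din-KO 1, Din-KO 2), and 56.8% ± 9.4 of its cells had a Sox9 UMI, against 10.0% after thinning. No doublets were removed, and the 8 general mesenchyme markers summed to 2323 to 12975 CPM in this cluster, against 259 to 625 CPM in the macrophage-like clusters 6 and 8, with none at 0. The 12 pulp markers summed to 432 to 648 CPM, with Lhx6 at 0, against 8.83 to 83.6 CPM. Their part in the Sox9 level was not tested. A cluster of cells with histone genes (cluster 21, Top2a) had Sox9 at 150.3 ± 32.7 CPM and Sox11 at 148 ± 18.9 CPM.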
